A study of Citrus maxima with 12 samples.

Results

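Diseased and control fruit of the pomelo cultivar Taoxi (Citrus maxima) were compared across all genes of the deposited expression table. The comparison held 6 of the 12 labelled RNA-seq libraries of the series, chosen by their cultivar and treatment labels: 3 of Taoxi fruit with black spot disease and 3 of Taoxi control fruit. Diseased fruit of the cultivars Jinlan and Jinsha, with 3 libraries each, served only as a reference for levels. The study infected fruit with a pathogen it names D. citri and sampled at 13 days after infection. The controls are described as uninfected, and their labels give no sampling day, so a match in time is unknown. The labels also give no fruit age and no strain of the pathogen. Each library is labelled as a biosample, and the labels do not tie biosamples to fruits or trees. The p-values therefore measure the spread between these libraries, part of which may be technical.

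Black spot marks citrus fruit with dark lesions on the rind. A plant organ under fungal attack is known to change the transcription of many genes at once, among them genes of defence proteins, of cell wall building and of phenolic compounds, while genes of growth and primary metabolism often decline. RNA from a whole piece of fruit averages over lesion and healthy tissue, so fewer cells of a type and less RNA per cell cannot be told apart. The table pairs its gene IDs with no names or descriptions, so the genes are given by ID, no function is stated for them, and the fruit label could not be checked against marker genes. Values are FPKM, which scale the fragments of a gene by its length and by the library. Of 32863 IDs, 16635 reached 1 FPKM in 2 or more of the 6 libraries and were tested on the log2(FPKM + 1) scale, on which the changes of low genes are understated.

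The 6 libraries were alike in total, with FPKM sums of 566029 to 577783 and 15668 to 16666 IDs at 1 FPKM or more. The FPKM hold no read totals, so the depth behind a value is unknown. The library labelled Taoxi control 1 stood apart from its group. Across the tested genes, the log2 values of Taoxi controls 2 and 3 correlated at 0.991 (Pearson's r) and those of the diseased libraries at 0.986 to 0.988 with each other. Taoxi control 1 correlated at only 0.882 and 0.892 with the other controls, at 0.909 to 0.913 with diseased Taoxi and at a mean of 0.975 with diseased Jinlan. Among the 6 libraries the first principal component, with 58.0% of the variance, ran from Taoxi control 1 (score -80.9) through diseased fruit (1.18 to 9.45) to controls 2 and 3 (30.7 and 35.6). The second, with 29.6%, separated diseased fruit (20.2 to 31.8) from all 3 controls (-34.0 to -20.7). Without Taoxi control 1 the separation of disease from control became the first component, with 72.6% of the variance. Counts of called genes and named genes are therefore given with all 3 controls and with controls 2 and 3 only. Descriptions of gene sets use the calls against controls 2 and 3, with the value for all controls beside them where it was computed.

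**Figure D1:**
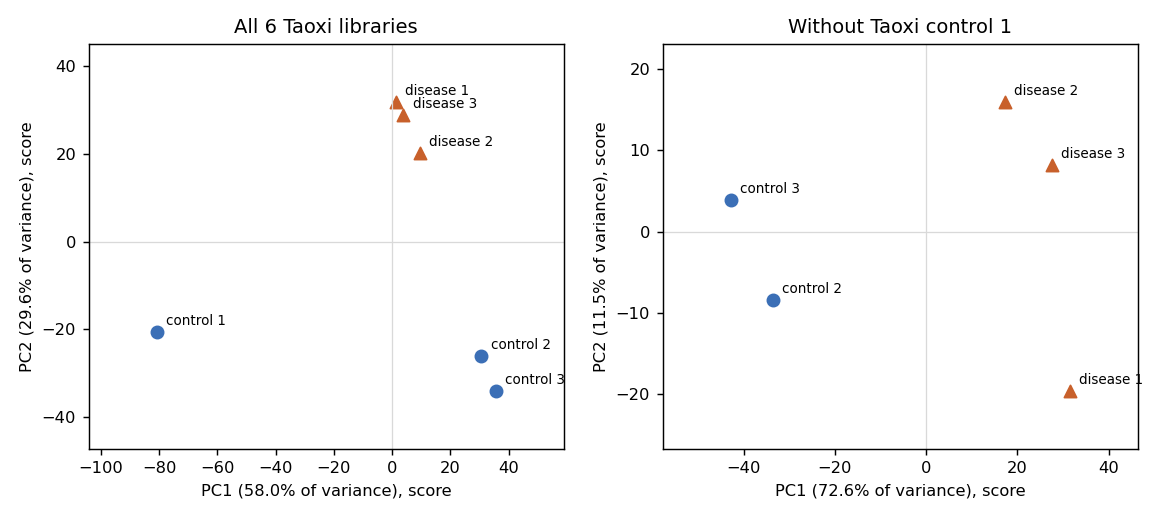
Principal component scores of the Taoxi libraries on log2(FPKM + 1) over 16635 genes, with the component's share of variance on each axis, for all 6 libraries (left) and without Taoxi control 1 (right); circles are control and triangles diseased libraries. Taoxi control 1 lies alone at -80.9 on the first component of the left panel, while disease and control separate along the first component of the right panel.

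IDs near 0 in controls 2 and 3 and expressed in diseased Jinlan and Jinsha, or the reverse, were followed in the other Taoxi libraries. From controls 2 and 3 and the 6 Jinlan and Jinsha libraries alone, 57 IDs were found that stayed within 0.1 FPKM in the former and reached 3 FPKM throughout the latter. All 57 were above 0.1 FPKM in Taoxi control 1, with a median ratio of 0.715 to the Jinlan and Jinsha mean. In diseased libraries 1, 2 and 3 the median ratios over all 57 were 0.0490, 0.0199 and 0.0691. In all 3 diseased libraries, 23 of the 57 were at 0.1 FPKM or less and 31 were above it. Over those 31, which their diseased level selects, the medians were 0.292, 0.191 and 0.394, beside 0.578 for Taoxi control 1. The reverse choice gave 35 IDs that reached 3 FPKM in both control libraries and stayed within 0.1 FPKM throughout Jinlan and Jinsha. In Taoxi control 1 the ratio to the mean of controls 2 and 3 had a median of 0.124 over these IDs. In the diseased libraries its medians were 0.857, 0.950 and 0.875, and single IDs ranged from 0.0613 to 3.62. On both sets the library labelled Taoxi control 1 lay nearer to Jinlan and Jinsha than to the other Taoxi controls. It did not match them fully, as the 35 IDs show. Both sets contrast Taoxi controls 2 and 3 with diseased Jinlan and Jinsha, so cultivar and disease cannot be told apart in them. Why Taoxi control 1 lay there was not tested. Its label stays in doubt, and every value with all 3 controls depends on it. The library is called Taoxi control 1 only by its label. The diseased libraries also held IDs that are near 0 in controls 2 and 3, so disease and other differences between the sampled fruits cannot be told apart.

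**Figure D2:**
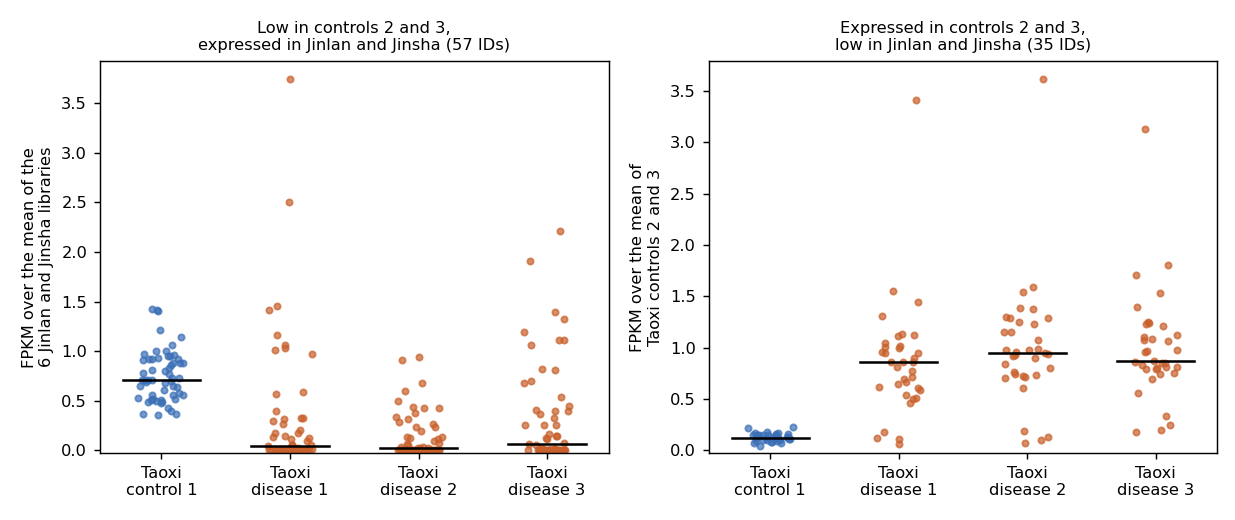
FPKM of single IDs in Taoxi control 1 (blue) and the 3 diseased Taoxi libraries (orange), relative to the mean of the 6 Jinlan and Jinsha libraries for 57 IDs low in Taoxi controls 2 and 3 (left) and to the mean of controls 2 and 3 for 35 IDs low in Jinlan and Jinsha (right); bars are medians. In the left panel Taoxi control 1 has a median of 0.715 and many diseased points lie at 0, and in the right panel Taoxi control 1 has a median of 0.124.

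With all 3 controls, few genes differed beyond the spread of the libraries. In limma's fit of the 6 libraries, 10 genes (0.0601% of those tested) were higher in diseased fruit and 1 (0.00601%) was lower at an adjusted p below 0.05, together 0.0661%. Each of these changes was at least 2-fold, so the percentages at that size are the same. At an unadjusted p below 0.05 there were 2303 genes (13.8%). The median over genes of the standard deviation of log2 values was 0.268 among the 3 controls, 0.124 among the diseased libraries and 0.0901 between controls 2 and 3. The 11 calls rested on every library but Taoxi control 1: no gene passed when any 1 of the other 5 was left out, with 1374 to 1922 genes then at an unadjusted p below 0.05. Without Taoxi control 1, all 11 passed in the same direction. That fit shares its libraries with the first, so this is no independent check.

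The largest rise in that fit was that of NewGene_4547. Its level was 0.253, 0.0873 and 0 FPKM in controls 1, 2 and 3 against 59.8, 18.8 and 25.5 FPKM in diseased libraries 1, 2 and 3. All controls were near 0, and diseased library 1 was the highest. Its log2 fold change was 4.84 ± 0.41 (standard error, adjusted p of 0.0408 in limma), and 4.93 ± 0.43 against controls 2 and 3 (adjusted p = 0.00297 in limma). The next rise was that of Cg4g016320, at 0.658, 1.75 and 0.822 FPKM in the controls and at 16.3, 23.6 and 35.7 FPKM in the diseased libraries. The groups were far apart, and here diseased library 3 was the highest. Its log2 fold change was 3.63 ± 0.33 (standard error, adjusted p of 0.0426 in limma), and 3.48 ± 0.32 against controls 2 and 3 (adjusted p = 0.00310 in limma). The only gene called lower, Cg3g022930, had the tightest groups. It was at 38.4, 37.1 and 42.9 FPKM in the controls and at 13.1, 14.5 and 13.9 FPKM in the diseased libraries, a log2 fold change of -1.45 ± 0.10 (standard error, adjusted p of 0.0250 in limma). In this gene Taoxi control 1 lay between the other controls, and against controls 2 and 3 alone the log2 fold change was -1.47 ± 0.10 (standard error, adjusted p of 0.00218 in limma).

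The other 8 genes called higher had log2 fold changes of 1.97 to 3.53 (adjusted p = 0.0132 to 0.0426 in limma). Their means ran from 0.102 to 15.5 FPKM in the controls and up to 64.7 FPKM in diseased fruit. Among all 10 genes called higher, the lowest diseased library was between 2.97 and 74.2 times the highest control, and 5 of the 10 were below 1 FPKM in every control. In diseased fruit of the other cultivars these genes were lower: every Jinlan library lay below every diseased Taoxi library in 10 of the 10, and every Jinsha library likewise in 10 of the 10. In 5 of the 10 every Jinsha library was also above every Taoxi control, and in 2 of the 10 every Jinlan library was. In these 10 genes every control, Taoxi control 1 included, lay below diseased Taoxi. That library correlated at a mean of 0.975 with diseased Jinlan and 0.961 with diseased Jinsha. Lower levels in these cultivars thus follow in part from the choice of genes. No share over all genes tested is given beside these counts.

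**Figure D3:**
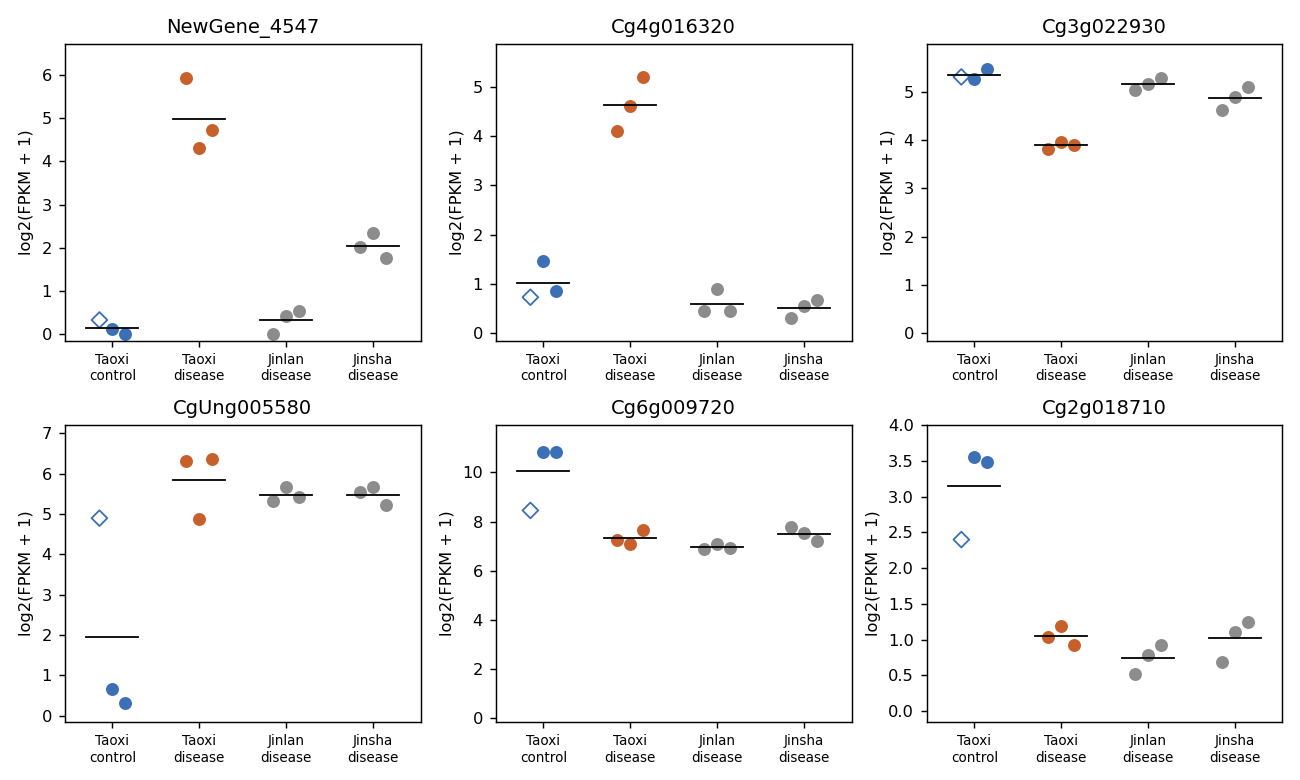
Level of each named ID on the log2(FPKM + 1) scale in control and diseased Taoxi and in diseased Jinlan and Jinsha; points are libraries, the open diamond is Taoxi control 1, and bars are means of 3 log2 values. NewGene_4547, Cg4g016320 and Cg3g022930 have all 3 controls together, while for CgUng005580, Cg6g009720 and Cg2g018710 Taoxi control 1 is displaced towards diseased fruit.

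In the other cultivars the named genes of this fit kept different levels. NewGene_4547 was at 0.264 ± 0.236 FPKM in diseased Jinlan and at 3.19 ± 0.85 FPKM in diseased Jinsha (SD, n = 3). Cg4g016320 was at 0.528 ± 0.291 and 0.433 ± 0.181 FPKM there (SD, n = 3), below the mean of Taoxi control fruit. Cg3g022930 was at 34.7 ± 2.9 and 28.6 ± 4.8 FPKM (SD, n = 3), with means between those of diseased and control Taoxi. No labelled control fruit of Jinlan or Jinsha entered, so these are levels and not responses to disease.

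Against controls 2 and 3 only, 1936 genes (11.6% of those tested) stood higher and 1157 (6.96%) lower in diseased fruit at an adjusted p below 0.05 in limma, together 18.6%. The change was 2-fold or more for 523 (3.14%) of the higher and 205 (1.23%) of the lower genes. Large changes were mostly rises: 117 genes rose and 10 fell by 2 or more on the log2 scale, and another 406 rose and 195 fell by 1 to 2. The median log2 fold change was 0.67 among the genes called higher and -0.63 among those called lower, beside 0.038 over all genes tested. The excess of higher over lower calls depended on the scaling. Of the passing genes 62.6% were higher with FPKM as deposited, 52.1% with median-ratio scaling, 48.8% after scaling to the upper quartile and 47.6% after quantile normalization. The number of passing genes, 3093 in all, also leaned on single libraries: it was 1159 without Taoxi control 2, 263 without Taoxi control 3 and 2019 without diseased Taoxi 3.

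**Figure D4:**
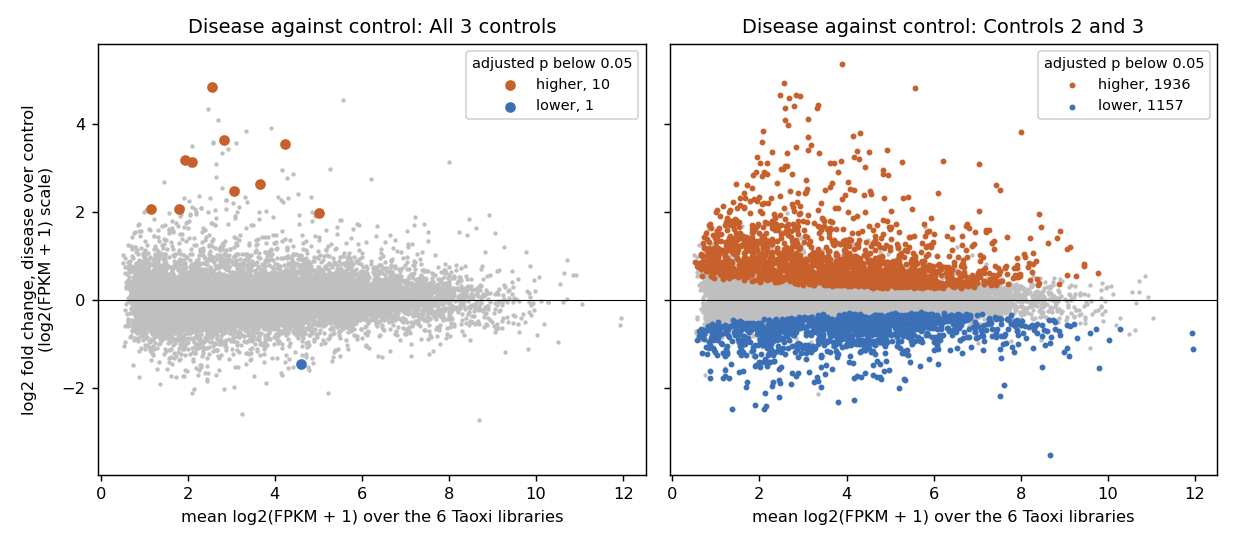
Log2 fold change of disease over control against the mean log2(FPKM + 1) over the 6 Taoxi libraries for 16635 genes, with all 3 controls (left) and with controls 2 and 3 (right); coloured points passed at a limma adjusted p below 0.05, orange higher and blue lower in disease. The left panel has 10 higher genes and 1 lower, the right panel 1936 and 1157.

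CgUng005580 had the largest rise against controls 2 and 3. Its level was 0.587 and 0.239 FPKM in controls 2 and 3 against 77.8, 28.5 and 81.3 FPKM in the diseased libraries, a log2 fold change of 5.36 ± 0.43 (standard error, adjusted p of 0.00254 in limma). Taoxi control 1, at 28.8 FPKM, lay inside the diseased range, and with it the log2 fold change was 3.89 ± 1.25 (standard error, adjusted p of 0.267 in limma). Diseased Jinlan and Jinsha held CgUng005580 at 43.5 ± 5.3 and 43.6 ± 6.9 FPKM (SD, n = 3). NewGene_4547, described above, had the next largest rise.

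The deepest fall was that of Cg6g009720, an abundant transcript of control fruit. Its level was 1830 and 1825 FPKM in controls 2 and 3 but 349 FPKM in Taoxi control 1, against 149, 133 and 201 FPKM in the diseased libraries. All controls were above all diseased libraries, with Taoxi control 1 much nearer to the latter. The log2 fold change was -3.52 ± 0.18 against controls 2 and 3 (standard error, adjusted p of 0.00104 in limma) and -2.72 ± 0.66 against all 3 (adjusted p = 0.178 in limma). Diseased Jinlan and Jinsha held Cg6g009720 at 125 ± 11 and 182 ± 35 FPKM (SD, n = 3), also near diseased Taoxi. Cg2g018710, the next fall, had 10.7 and 10.3 FPKM in controls 2 and 3 and 4.28 FPKM in Taoxi control 1, against 1.05, 1.27 and 0.899 FPKM in the diseased libraries. Again no diseased library reached a control. Its log2 fold change was -2.48 ± 0.13 (standard error, adjusted p of 0.00104 in limma), and -2.10 ± 0.33 with all controls (adjusted p = 0.103 in limma). Diseased Jinlan and Jinsha held it at 0.683 ± 0.230 and 1.05 ± 0.40 FPKM (SD, n = 3), near diseased Taoxi.

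For most genes called against controls 2 and 3, Taoxi control 1 did not lie with its group. Of the 1936 genes called higher, it was at or below the higher of controls 2 and 3 in 399, between the controls and the diseased libraries in 395, within the diseased range in 293 and above all diseased libraries in 849. Of the 1157 called lower, the same classes held 285, 275, 182 and 415 genes. All 3 controls thus lay on one side of all diseased libraries in 794 (41.0%) of the genes called higher and 560 (48.4%) of those called lower. Over all genes tested, groups that did not overlap were found in 2073 genes higher (12.5%) and 1859 lower (11.2%) with 3 controls, and in 5144 (30.9%) and 3666 (22.0%) with controls 2 and 3. Of the latter, 40.3% and 50.7% kept groups that did not overlap when Taoxi control 1 was added. The shares among called genes were close to these. In the fit with all controls, the genes called higher against controls 2 and 3 had a median log2 fold change of 0.44 in place of 0.67, and those called lower -0.48 in place of -0.63. Both fits share 5 libraries, so the second value is no independent check.

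**Figure D5:**
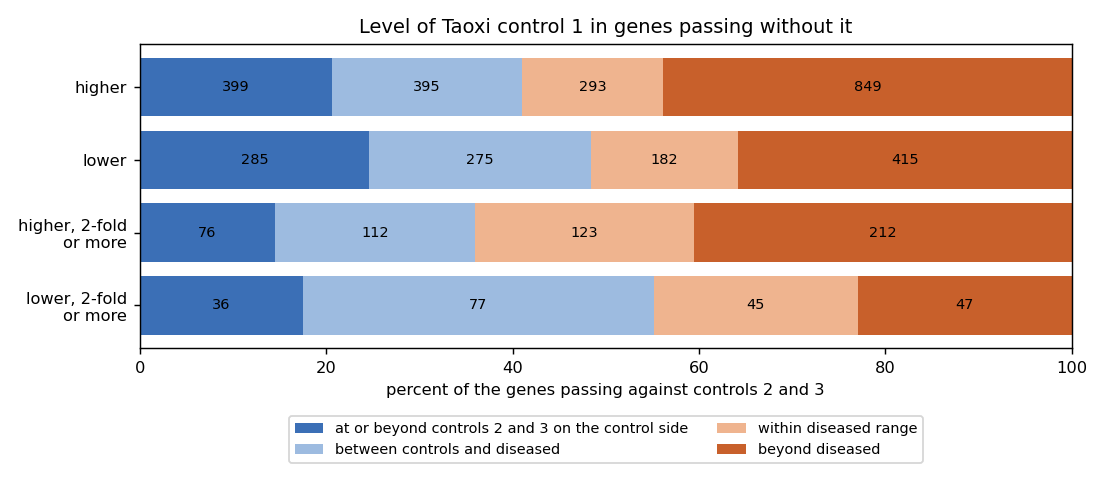
Position of Taoxi control 1 among genes passing against controls 2 and 3, as the percent of each set of genes (numbers of genes in the bars), from the control side (dark blue) through the gap between groups (light blue) and the diseased range (light orange) to beyond all diseased libraries (dark orange). It lay beyond the diseased libraries in 849 of 1936 higher and 415 of 1157 lower genes.

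Some IDs were listed near 0 in control fruit and expressed in every diseased library. With 0.1 FPKM as the most in any of 3 controls and 1 FPKM as the least in any diseased library, there were 4 IDs, with means of 1.76 to 3.82 FPKM in diseased fruit, and 1 ID showed the reverse, at 2.31, 1.58 and 3.42 FPKM in the controls and 0 in every diseased library. With only controls 2 and 3 required to be low, 37 IDs were found, at means of 1.76 to 34.7 FPKM in diseased fruit. Taoxi control 1 was at 1 FPKM or more in 29 of them and at 0.1 FPKM or less in 4. Their median level was 4.75, 2.76 and 4.82 FPKM in diseased libraries 1, 2 and 3 and 4.14 FPKM in Taoxi control 1. Most were also expressed in the other cultivars, with a mean of 1 FPKM or more in diseased Jinlan for 30 of the 37 and in diseased Jinsha for 32. Over the whole table, Taoxi control 1 had 16666 of 32863 IDs at 1 FPKM or more. The shares of tested genes at this level in Taoxi control 1, Jinlan and Jinsha are not given. These counts are therefore not read as a trait of the 37 IDs.

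Changes were spread over the whole range of levels. Against controls 2 and 3, 9.88% of 7473 genes below a mean of 10 FPKM were higher and 5.30% lower. From 10 to 100 FPKM the shares were 13.2% and 7.86% of 8006 genes, and at 100 FPKM or more 11.9% and 11.4% of 1156 genes. With FPKM as deposited, higher and lower calls were thus near balance among abundant genes, with 138 and 132. Of these, 36 and 21 changed by at least 2-fold. The split by level was not computed under other scalings, on which the excess of higher calls depended. With all controls none of the 11 called genes had a mean of 100 FPKM or more.

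The 2 most abundant transcripts were lower in diseased fruit than in controls 2 and 3. The ID with the highest mean had 6931 and 7735 FPKM in controls 2 and 3 against 2679, 3323 and 4502 FPKM in the diseased libraries, a log2 fold change of -1.10 (adjusted p = 0.0398 in limma). Taoxi control 1 held it at 1750 FPKM, below all diseased libraries, and with all controls it did not pass (adjusted p = 0.823 in limma). The second ID had 5123 and 5594 FPKM in controls 2 and 3 and 3658 FPKM in Taoxi control 1, against 3339, 3098 and 3157 FPKM in the diseased libraries. No diseased library reached a control, and the log2 fold change against controls 2 and 3 was -0.74 (limma adjusted p = 0.0442, and 0.461 with all controls). None of the next 8 IDs by mean passed in either fit. Together these 10 IDs made up 4.90% and 5.07% of the summed FPKM in controls 2 and 3, 2.74% in Taoxi control 1 and 3.82% to 3.90% in diseased fruit.

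The genes called against controls 2 and 3 also carried different parts of the transcript pool, as their choice implies. Those called higher summed to 8.20% and 7.60% of the FPKM in Taoxi controls 2 and 3 and to 13.4% to 14.1% in diseased fruit. Those called lower went from 15.4% and 16.3% to between 8.97% and 9.81%. Taoxi control 1, which entered the filter on expression but not the calls, held 13.5% in the former and 9.74% in the latter. Both values lay within the diseased range. Controls 2 and 3 were set apart in these genes by choice, so levels away from them in other libraries follow in part from it. The Jinlan and Jinsha libraries held 15.7% to 17.0% in the genes called higher and 7.17% to 7.86% in those called lower, past diseased Taoxi in both sets.

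The diseased library with the most extreme level varied from gene to gene. Among the 523 genes higher by at least 2-fold against controls 2 and 3, the highest library was diseased 1 in 221, diseased 3 in 232 and diseased 2 in 70 genes. Over all genes tested, diseased 1, 2 and 3 were the highest in 29.7%, 36.2% and 34.1%, beside 42.3%, 13.4% and 44.4% of these 523 genes. Among the 205 genes lower by at least 2-fold, diseased 1 was the lowest in 106, diseased 2 in 62 and diseased 3 in 37, where diseased 1 was the lowest in 44.9% of all genes. The highest diseased library exceeded the lowest by a median of 1.78 times among the 523 genes, and by more than 2 times in 200 of them. Among the 10 genes called higher with all controls, the highest was diseased 1 in 2, diseased 2 in 2 and diseased 3 in 6. On the first principal component without Taoxi control 1, diseased 2 (17.3) lay nearer to the controls (-42.8 and -33.6) than diseased 3 (27.5) and diseased 1 (31.5).

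Called genes were found under every ID prefix. Against controls 2 and 3, the share called higher was 10.1% to 13.0% over the prefixes Cg1g to Cg9g, 10.4% for CgUng and 10.9% for NewGene IDs. The share called lower was 6.20% to 8.23%, 5.43% and 4.90%. Among changes of at least 2-fold the NewGene IDs had 49 higher (4.80% of 1021) and 4 lower (0.392%), beside 3.02% and 1.30% of the 15209 IDs with a numbered prefix. With all controls, the 11 called genes were 3 of the 1021 NewGene IDs and 8 of the 15209 IDs with a numbered prefix.

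The calls were also compared along the numbering of the IDs, which runs in steps of 10 within a prefix. The table gives no coordinates, so this is an order of names. Among 10105 pairs of consecutive IDs with both tested, 223 were both higher, 107 both lower and 136 of opposite direction against controls 2 and 3. The second ID was higher in 20.0% of the pairs whose first was higher, beside 11.4% of all pairs, and lower in 14.3% of those whose first was lower, beside 7.54%. With all controls, 0 pairs had both IDs among the 11 called genes. These shares are a description with no test. The longest run of higher IDs held 9 under the prefix Cg2g. Their summed FPKM was 8.37 and 4.73 in Taoxi controls 2 and 3 and 35.4, 19.4 and 40.7 in the diseased libraries, with log2 fold changes of 0.78 to 1.74 (adjusted p = 0.00773 to 0.0339 in limma). With all controls the log2 fold changes were 0.14 to 0.76. Taoxi control 1 reached 79.7 in this sum, above every diseased library, and in none of the 9 IDs did all 3 controls lie below diseased fruit. Diseased Jinlan had sums of at least 84.3 and diseased Jinsha 65.7 to 86.9. The longest run of lower IDs held 6 under the prefix Cg9g, with sums of 1648 and 1913 in controls 2 and 3, 793 in Taoxi control 1 and 836 to 1044 in diseased fruit. Its log2 fold changes were -1.19 to -0.62 (adjusted p = 0.00757 to 0.0297 in limma), and -1.14 to 0.22 with all controls. All 3 controls lay above diseased fruit in only 2 of the 6 IDs. Whether the IDs of a run are similar copies that share reads was not tested. Both runs were picked after their values had been seen and carry no test of their own.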

How the data were processed

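RNA-seq of pomelo fruit was deposited as FPKM values by the authors, and the unit is taken from the deposited table. Per the labels' protocols, RNA came from an RNeasy Mini Plus kit and libraries from a SMARTer mRNA-seq kit. Aligner, counter, build and annotation: not given in the sources used here. Of the table's columns, 6 match no labelled sample and were not used. Whole reads could not be recovered: at most 1.59% of IDs below 0.3 FPKM in a pair of libraries shared a log2 ratio bin of width 0.02, over 6 pairs. Counting intervals are therefore left out.

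Columns were matched to samples by title. FPKM were not rescaled between libraries before taking log2(FPKM + 1). A linear model of the Taoxi libraries alone was fitted in R 4.3.3 with limma 3.58.1, whose empirical Bayes prior followed the mean expression, with 4 residual degrees of freedom for all 3 controls and 3 for controls 2 and 3, on the same 16635 genes. P-values are two-sided and adjusted by Benjamini and Hochberg over these genes. The code was tested on simulated data. From each fit the passing IDs with separate groups were ranked by fold change, and the top 2 and bottom 2 are named (1 at the bottom with all controls). Lists of genes by function could not be filled without names. The comparison, the filter and the lists were chosen with earlier results of these data known. The longest runs and the 57 and 35 IDs were chosen after seeing the values. Alternatives were pseudocounts, filters, scalings, variance priors, library weights, a replicate block, a fit over the 4 labelled groups and leaving out each library. Figures were drawn with matplotlib 3.10.9.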

Additional observations from a re-analysis of the deposited data

How the results depend on the processing

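With all 3 controls the 11 calls became 6 with a pseudocount of 0.1, 5 with no filter, 5 with quantile normalization, 17 with no variance trend, 71 at an adjusted p below 0.1, 1459 in a fit over the 4 labelled groups and 4135 with library weights. Leaving out a library gave 0 to 3093 calls, the highest without Taoxi control 1, and medians over all genes of -0.021 to 0.038. With library weights that median was 0.052. The replicate block gave 0 calls (1824 genes at an unadjusted p below 0.05). Same-numbered libraries deviated from their group means with correlations of 0.174, 0.113 and -0.0424, and not every library correlated best with its own number. The control mean includes Taoxi control 1, which stood apart, so these correlations cannot decide whether the numbers mark pairs. The numbers are not treated as pairs. Against controls 2 and 3 the 3093 calls became 1295 with no filter, 5265 in the fit over 4 groups, 1569 with the replicate block, 4673 at an adjusted p below 0.1 and 728 with at least 2-fold asked. Leaving out a library gave 263 to 2424, and a lone control was then assumed to vary like the diseased libraries. The median over all genes, 0.038, was -0.0047 with median-ratio scaling, -0.020 after scaling to the upper quartile and -0.029 after quantile normalization. IDs near 0 in controls 2 and 3 and expressed in disease went from 37 to 21 when low meant 0 FPKM and to 14 when expressed meant 3 FPKM, and the reverse from 1 to 0 at 3 FPKM. With all controls these counts went from 4 and 1 to 0 and 0 at 3 FPKM. The cause of these changes was not tested. The 6 named IDs passed against controls 2 and 3 in all 18 alternatives (highest limma adjusted p = 0.0425), and no log2 fold change of theirs changed sign in either fit. With all controls, NewGene_4547, Cg4g016320 and Cg3g022930 had limma adjusted p-values of up to 0.192, 0.201 and 0.220 among the alternatives. The depth of the libraries is unknown, which leaves the precision of low FPKM unknown too.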
